A study of Mus musculus with 12 samples.

Results

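Integrins are cell surface receptors, each made of an alpha and a beta subunit, that join the cytoskeleton to the matrix outside the cell. Laminins are matrix proteins of basement membranes, each built of an alpha, a beta and a gamma chain, and several integrins bind them. Which subunits a cell makes sets which matrix proteins it can hold: α6β4 binds laminins in the hemidesmosomes of epithelia, α5β1 binds fibronectin, the αv integrins bind vitronectin and latent TGF-beta, and a further set is found on leukocytes. The genes described here are those whose symbol in the platform annotation names an integrin alpha subunit, an integrin beta subunit or a laminin alpha, beta or gamma chain. They were chosen by name and not by their values, and each is read from its probe set with the highest mean over the arrays. There were 34 such genes among 18193, of which 16 encode integrin alpha subunits, 8 integrin beta subunits and 10 laminin chains. They had 73 probe sets in all, and 14 of the genes had 1 probe set.

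The arrays measured total RNA of C3H10T1/2, a mouse embryonic cell line of mesenchymal character that can take cartilage, bone, fat or muscle fates. There were 12 arrays in 4 groups of 3. Cells of the first group were transfected with siRNA-140, a mimic of miR-140 (a microRNA known from cartilage), and were set against cells given siRNA-96. Cells of the third group received an LNA oligonucleotide against miR-140 (anti-miR-140) and were set against cells given an LNA oligonucleotide against miR-449 (anti-miR-449). LNA is a modified nucleic acid that binds its microRNA tightly. No group was left untransfected, so each difference holds the action of both oligonucleotides. Neither dose nor time is in the labels, and separate cultures are not mentioned for the replicates, so a p-value here measures only how far these samples spread, which may be technical. In bulk RNA, fewer cells of a type and less RNA per cell cannot be told apart.

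Arms of the microRNAs in the group names are shown because the seed of an arm, bases 2 to 8, sets which transcripts it pairs with. The labels do not say which arm of each hairpin the oligonucleotides copy or block, so the seeds shown need not be those in play. The miR-140-5p arm and the 3p arms of miR-96 and miR-449 are not shown. Mature sequences are from RefSeq (GRCm38.p6), 5′ to 3′, with the seed in capitals.
mmu-miR-140-3p: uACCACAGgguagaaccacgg
mmu-miR-96-5p: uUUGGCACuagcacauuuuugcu
mmu-miR-449a-5p: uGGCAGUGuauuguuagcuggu
mmu-miR-449c-5p: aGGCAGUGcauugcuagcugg
The miR-449a and miR-449c arms share their seed, GGCAGUG. The seeds of miR-140-3p (ACCACAG) and miR-96-5p (UUGGCAC) differ from it and from each other. The genes lie on chromosome 8 at 107551288-107551308 (plus strand) for miR-140-3p, chromosome 6 at 30169506-30169528 (minus strand) for miR-96-5p, and chromosome 13 at 113037549-113037570 (plus strand) for miR-449a-5p and 113036008-113036028 (plus strand) for miR-449c-5p.

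The siRNA arrays went against their labels, which touches every siRNA result. Across probe sets, siRNA-140 replicate 3 was most like siRNA-96 replicate 2, and siRNA-96 replicate 1 was most like siRNA-140 replicate 1. Interferon-induced genes (8 of 10 listed were measured) averaged 4.15, 4.30 and 6.47 on the log2 scale with siRNA-140 (replicates 1, 2 and 3), while the siRNA-96 replicates in the same order averaged 4.43, 7.70 and 8.24. The ribosomal RNA controls read 5.62 to 6.73 with siRNA-140 and 5.40 to 10.47 with siRNA-96, the highest in siRNA-96 replicate 1. The 3′ minus 5′ difference of the Gapdh controls was 0.04 to 0.13 on all siRNA arrays. The siRNA contrast is therefore given with all arrays and also with siRNA-140 replicate 3 and siRNA-96 replicate 1 left out. That choice followed from the values of these same arrays, so an adjusted p from the remaining ones cannot stand as independent support for a miR-140 effect.

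The line carried the markers of mesenchymal cells on every array, while markers of other cell types that use integrins were mixed in level. The 9 measured of 10 listed mesenchymal markers had mean levels of 10.66 to 10.95 with siRNA-140 and 10.53 to 10.97 with siRNA-96, and of 11.22 to 11.28 with anti-miR-140 and 11.22 to 11.31 with anti-miR-449. Leukocyte markers (8 of 8 measured) had mean levels of 4.46 to 4.59, 4.57 to 4.63, 4.66 to 4.70 and 4.68 to 4.78 in the same order of groups, near the array medians of 3.95 to 4.38. Ptprc, which encodes the leukocyte surface protein CD45, averaged 2.60 with anti-miR-140 and 2.57 with anti-miR-449, and over the 12 arrays it averaged 2.38. Other markers stood above the array medians: over the 12 arrays Cd14 averaged 6.91 and Cd68 and Csf1r 5.21 each. Of the epithelial markers, Itgb4 (6.35), Epcam (6.22) and Krt8 (5.07) averaged above the medians. Krt5 (3.79), Krt14 (3.58), Cdh1 (3.56), Krt19 (3.30) and Krt18 (2.42) averaged below them. Mean levels over the arrays were 3.50 to 3.85 for endothelial, 4.10 to 4.50 for skeletal muscle and 3.35 to 3.73 for platelet markers. Thy1, a marker on the mesenchymal list, was also dim, with 3.76 with anti-miR-140 and 3.85 with anti-miR-449. The deposited values hold no detection calls, and the sources used here do not give whether the siRNA and the anti-miR arrays were normalized together, so levels are not tested between the experiments.

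With all 12 arrays, the siRNA-140 and siRNA-96 groups could not be told apart at any integrin or laminin gene. limma called 0 of 34, where 0% of all genes were called, and the smallest adjusted p among the 34 was 0.88. At an unadjusted p under 0.05 there was 1 of 34, Itga2, beside 4.9% of all genes. The median log2 difference over the 34 genes was 0.04, beside 0.03 over all genes, and single differences ran from -0.59 for Itgb8 to 0.60 for Itgb4. The arrays of the groups did not overlap at 1 of 34 genes, again Itga2, where siRNA-140 was above siRNA-96 at 3.31% of all genes and the groups were apart either way at 5.8%.

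Without the 2 arrays that went against their labels, 8 of the 34 genes were higher with siRNA-140 and 2 were lower (limma, 10 arrays, adjusted p under 0.05). Of all genes, 6.27% were higher and 4.85% lower, 11.1% in all. By class, 3 of 16 alpha genes were higher and 0 lower, 3 of 8 beta genes higher and 1 lower, and 2 of 10 laminin genes higher and 1 lower. A fit of the 4 remaining siRNA arrays alone, which called 4.83% of all genes, kept 5 of the higher (Itgb4, Itga6, Itgb7, Itgav and Itgb1) and 1 of the lower (Itgb8), where 2.44% and 2.38% of all genes passed both fits in these directions (4.82% in all). The median log2 difference was 0.11, beside 0.04 over all genes. The differences of Itgb4, Itga6 and Itgb8 were at least 2-fold. The share of all genes with differences of that size was not counted, so no more is read from this. Interferon-induced genes were among the values by which the 2 arrays were seen to go against their labels. That 8 of 8 were lower with siRNA-140 in this fit therefore follows from the choice of arrays and is not a separate result. Their part in these differences was not tested.

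**Figure D1:**
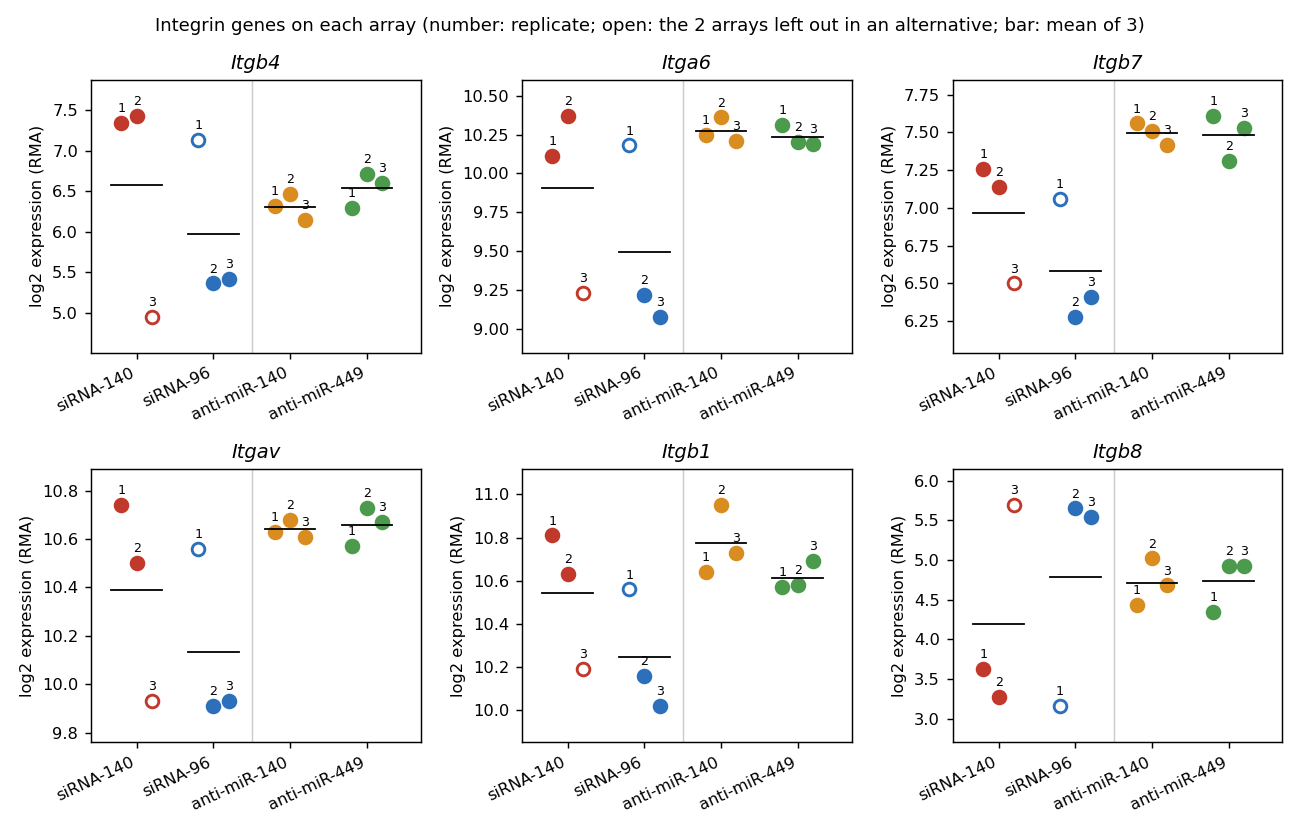
Log2 expression (y axis) of the 6 integrin genes called in both fits that omit the 2 arrays, on each array of the 4 groups (x axis). Each point is 1 array with its replicate number, open points are the 2 arrays left out in the alternative, and bars are means of 3 arrays. Itgb4 gave 7.34 and 7.43 in replicates 1 and 2 with siRNA-140 and 4.95 in replicate 3, while Itgb8 showed the opposite order, with 3.63, 3.27 and 5.69.

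Laminin receptors come first. Itgb4 encodes the β4 subunit, which pairs only with α6 and reaches the keratin cytoskeleton through a long tail. With siRNA-140, replicates 1, 2 and 3 read 7.34, 7.43 and 4.95, while with siRNA-96 they read 7.13, 5.36 and 5.42. Both groups thus held high and low arrays, and the lowest of all was a siRNA-140 array. Itgb4 averaged 6.57 ± 1.41 with siRNA-140 and 5.97 ± 1.01 with siRNA-96 (SD, n = 3 each). These means differ by 0.60 ± 0.55 on the log2 scale (limma SE; interval at 95% confidence -0.59 to 1.80; adjusted p = 0.892). Without the 2 arrays, Itgb4 was higher with siRNA-140 by 1.99 ± 0.15, a 3.99-fold difference (limma adjusted p = 2.69e-06 with 10 arrays and 4.29e-05 with 4).

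Itga6 encodes α6, the partner of β4 and also of β1. It read 10.11, 10.37 and 9.23 with siRNA-140, against 10.18, 9.22 and 9.08 with siRNA-96. The low arrays were the same as for Itgb4, namely siRNA-140 replicate 3 and siRNA-96 replicates 2 and 3. The difference was 0.41 ± 0.28 over all arrays (limma adjusted p = 0.88) and 1.09 ± 0.12 without the 2 arrays, which is 2.13-fold (limma adjusted p = 7.66e-05 and 0.00335). A second probe set of Itga6 gave 1.04.

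Itga3, whose product α3 binds laminins as α3β1, gave 0.48 ± 0.15 without the 2 arrays (limma adjusted p = 0.0635). A dimmer Itga3 probe set gave 0.75 and passed both fits (limma adjusted p = 0.00838 and 0.0167), and another gave -0.07, so its probe sets disagree. Itga7, a laminin receptor subunit of muscle, read 3.71 to 3.89 with siRNA-140 and 3.65 to 3.80 with siRNA-96.

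Lama3 and Lamb3 encode chains of laminin-332, a ligand of α6β4 in skin. Lamb3 read 5.75, 5.84 and 5.07 with siRNA-140, against 5.74, 5.27 and 5.25 with siRNA-96. The 3 low arrays were those low for Itgb4, with siRNA-140 replicate 3 lowest. The difference was 0.13 ± 0.19 over all arrays and 0.54 ± 0.13 without the 2, which passed with 10 arrays but not with 4 (limma adjusted p = 0.0164 and 0.0691).

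Lama3 read 3.60, 3.32 and 3.47 with siRNA-140, against 3.67, 3.48 and 3.55 with siRNA-96. These values overlapped, lay below the median of every array, and differed by -0.05 ± 0.17 without the 2 arrays. A still dimmer Lama3 probe set was lower there, at -0.69 (limma adjusted p = 0.00141 and 0.0228), the opposite direction to Lamb3, so no direction is given for Lama3.

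Itgb1 encodes β1, the shared partner of most alpha subunits. It read 10.81, 10.63 and 10.19 with siRNA-140, against 10.56, 10.16 and 10.02 with siRNA-96. The groups overlapped through siRNA-140 replicate 3 and siRNA-96 replicate 1. The difference was 0.30 ± 0.16 over all arrays (interval -0.05 to 0.65) and 0.63 ± 0.13 without the 2, which is 1.55-fold (limma adjusted p = 0.00622 and 0.0435). Another bright probe set gave 0.47 (limma adjusted p = 0.0223 with 10 arrays and 0.114 with 4), and the other 4 probe sets gave -0.01 to 0.29.

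Itgav encodes αv, which pairs with β1, β3, β5, β6 or β8. It read 10.74, 10.50 and 9.93 with siRNA-140, against 10.56, 9.91 and 9.93 with siRNA-96. The arrays again fell into a high and a low set that crossed the labels. The difference was 0.26 ± 0.19 over all arrays and 0.70 ± 0.11 without the 2, which is 1.62-fold (limma adjusted p = 0.00141 and 0.028). A second probe set gave 0.77 (limma adjusted p = 0.00358 and 0.0254), and the 3 dimmest gave -0.23 to 0.10.

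Itgb8 encodes β8, which pairs only with αv and is known for activating latent TGF-beta. It read 3.63, 3.27 and 5.69 with siRNA-140, against 3.16, 5.65 and 5.54 with siRNA-96. The arrays low for Itgb4 were the arrays high for Itgb8. The difference was -0.59 ± 0.62 over all arrays (interval -1.93 to 0.75) and -2.15 ± 0.21 without the 2 (interval -2.61 to -1.68; limma adjusted p = 3.71e-05 with 10 arrays and 6.32e-05 with 4). Thus αv and β8, subunits of 1 receptor, differed in opposite directions in that setting.

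The DNA upstream of 3 genes of these pairings (Itgav, its common partner gene Itgb1 and its partner gene Itgb8) is shown because their transcripts parted in that fit. Each sequence is the stretch of 250 bases before the annotated start, 5′ to 3′ on the gene's strand, from RefSeq (GRCm38.p6), where 22 of the 34 genes had an entry. Capitals mark the GC box GGGCGG on either strand.
Itgav, chr2:83724147-83724396, plus strand: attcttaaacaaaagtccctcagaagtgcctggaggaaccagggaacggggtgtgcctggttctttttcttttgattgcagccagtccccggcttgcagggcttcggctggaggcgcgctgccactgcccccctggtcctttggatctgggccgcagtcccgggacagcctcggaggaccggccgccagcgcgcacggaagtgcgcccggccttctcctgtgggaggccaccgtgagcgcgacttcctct
Itgb1, chr8:128685404-128685653, plus strand: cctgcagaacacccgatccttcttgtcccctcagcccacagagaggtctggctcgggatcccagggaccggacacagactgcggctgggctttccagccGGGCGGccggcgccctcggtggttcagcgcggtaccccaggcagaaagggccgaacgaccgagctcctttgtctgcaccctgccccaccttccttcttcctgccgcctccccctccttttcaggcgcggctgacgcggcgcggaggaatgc
Itgb8, chr12:119238277-119238526, minus strand: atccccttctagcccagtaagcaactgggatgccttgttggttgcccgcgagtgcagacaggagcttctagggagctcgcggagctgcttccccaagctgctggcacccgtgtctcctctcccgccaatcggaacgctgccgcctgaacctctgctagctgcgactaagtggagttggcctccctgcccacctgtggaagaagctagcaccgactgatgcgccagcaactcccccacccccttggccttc
The windows are 64.4% (Itgav), 68.0% (Itgb1) and 62.4% (Itgb8) G and C. The GC box was found once in the Itgb1 window and in 8 of the 22 windows, beside 32.9% of 27025 promoters. An AP-1 site (TGANTCA) was found in none of the 3 and in 6.87% of all promoters, and a TATA box (TATAAA) in none of the 3 and in 13.0%. A TEAD site (GGAATG) was found once in the Itgb1 window, in 2 of the 22 windows and in 12.6% of all promoters. An interferon-stimulated element was found in none of the 3, in 2 of the 22 windows and in 3.04% of all promoters. These are matches of letters on both strands in these windows, not sites shown to be bound.

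Itgb7 encodes β7, a subunit known from lymphocytes, where it pairs with α4 or αE. It read 7.26, 7.14 and 6.50 with siRNA-140, against 7.06, 6.28 and 6.41 with siRNA-96. The difference was 0.38 ± 0.21 over all arrays (interval -0.06 to 0.83) and 0.86 ± 0.12 without the 2 (limma adjusted p = 0.000605 and 0.00902). Its known partner genes, Itga4 and Itgae, lay below the median on every array, at 2.48 to 2.66 and 2.45 to 2.81 with siRNA-140 and at 2.62 to 2.84 and 2.66 to 2.81 with siRNA-96. Of the 8 leukocyte markers, 0 were called higher and 1 lower in that setting, where 6.27% and 4.85% of all genes were. Cd14 read 6.96, 7.47 and 6.78 with siRNA-140, against 7.23, 6.87 and 6.59 with siRNA-96. It gave 0.48 ± 0.18 without the 2 arrays (limma adjusted p = 0.127), while Cd68 gave -0.46 ± 0.18 (limma adjusted p = 0.166). Csf1r, the marker called lower, gave -0.52 ± 0.14 and did not pass with 4 arrays (limma adjusted p = 0.0413 with 10 arrays and 0.171 with 4). Their part in the Itgb7 difference was not tested.

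The other beta subunit genes were not called in any of these fits. Itgb5, whose product joins αv in a vitronectin receptor, read 9.32, 9.69 and 9.31 with siRNA-140, against 9.42, 9.33 and 9.33 with siRNA-96. It differed by 0.08 ± 0.11 over all arrays and by 0.18 ± 0.13 without the 2 (limma adjusted p = 0.502), and its probe sets gave 0.18 to 0.31. Itgb3, the β3 of αvβ3 and of the platelet fibrinogen receptor, read 5.83, 5.84 and 5.75 with siRNA-140, against 5.65, 5.66 and 5.79 with siRNA-96, and differed by 0.11 without the 2 arrays. Itgb6, an epithelial partner of αv, gave 0.33 ± 0.13 (limma adjusted p = 0.155). Itgb2, the β2 of leukocytes, gave -0.20 ± 0.16 and lay below the median on every array.

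Itga5, the α5 of the fibronectin receptor, was not called. It read 9.11, 9.23 and 9.21 with siRNA-140, against 8.99, 9.16 and 9.32 with siRNA-96, with the groups overlapping throughout. The difference was 0.03 ± 0.10 over all arrays and -0.07 ± 0.11 without the 2 (interval -0.31 to 0.17). Its sign also turned under other processing, so no direction is given.

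Of the collagen-binding alpha genes, Itga11 was not analysed here and none of the other 3 was called. Itga2, the α2 of a collagen receptor of platelets and epithelia, read 4.64, 4.17 and 4.28 with siRNA-140, against 4.11, 4.02 and 4.16 with siRNA-96. The lowest siRNA-140 array stood just above the highest siRNA-96 array, and the difference was 0.27 ± 0.12 (limma adjusted p = 0.88). Itga1 gave -0.30 ± 0.12 without the 2 arrays (limma adjusted p = 0.146) and Itga10, read at 3.77, 3.62 and 3.76 with siRNA-140 against 3.86, 3.59 and 4.09 with siRNA-96, gave -0.15 ± 0.17.

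Among the remaining alpha genes only Itgam was called without the 2 arrays, and only with 10 arrays. Itgam encodes the alpha subunit of the Mac-1 receptor of myeloid cells. It gave 0.47 ± 0.13 (limma adjusted p = 0.0362 with 10 arrays and 0.185 with 4) at levels of 1.94 to 2.86 with siRNA-140 and 2.13 to 2.33 with siRNA-96, below the median on every array. Itga4 read 2.49, 2.66 and 2.48 with siRNA-140, against 2.71, 2.62 and 2.84 with siRNA-96 (difference -0.18 ± 0.10 over all arrays). Its dimmer probe sets gave -0.13 to 0.20 over all arrays, so no direction is given for Itga4. Itga8, a partner of β1, read 1.94, 2.25 and 2.45, against 2.16, 2.45 and 2.41. All of these Itga4 and Itga8 values lay below the array medians. Itgal, the alpha subunit of LFA-1 on lymphocytes, read 4.11, 4.29 and 4.19, against 4.33, 4.06 and 4.15. Itgad was not analysed here. Itga9, Itga2b, Itgax and Itgae gave differences of -0.21 to 0.17 without the 2 arrays, none called.

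Beside Lamb3, 2 of the 10 laminin chain genes were called with 10 arrays, where 11.1% of all genes were. At the probe set used for each gene, none of the 10 was called with 4 arrays, where 4.83% of all genes were. Lamc1, the γ1 chain of most laminins, read 8.27, 8.28 and 7.93 with siRNA-140, against 8.21, 7.93 and 7.88 with siRNA-96. It gave 0.37 ± 0.10 without the 2 arrays, past the threshold with 10 arrays but not with 4 (limma adjusted p = 0.0283 and 0.226). Lama2, the α2 chain of muscle laminin, read 4.18, 4.17 and 4.49 with siRNA-140, against 4.31, 4.73 and 4.50 with siRNA-96. It gave -0.23 ± 0.12 over all arrays and -0.44 ± 0.12 without the 2 (limma adjusted p = 0.0316 and 0.164).

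The remaining chains were not called. Lama5, the α5 chain of epithelial and vascular laminins, read 6.41, 6.67 and 6.22 with siRNA-140, against 6.65, 6.26 and 6.24 with siRNA-96, and gave 0.29 ± 0.11 without the 2 arrays (limma adjusted p = 0.16). Lamb2 gave 0.45 ± 0.14 (limma adjusted p = 0.0626). Lama4 and Lamb1, chains of laminins of vessels and mesenchyme, gave 0.02 ± 0.10 and 0.04 ± 0.11. Lama1 and Lamc3 gave 0.11 and 0.12.

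**Figure D2:**
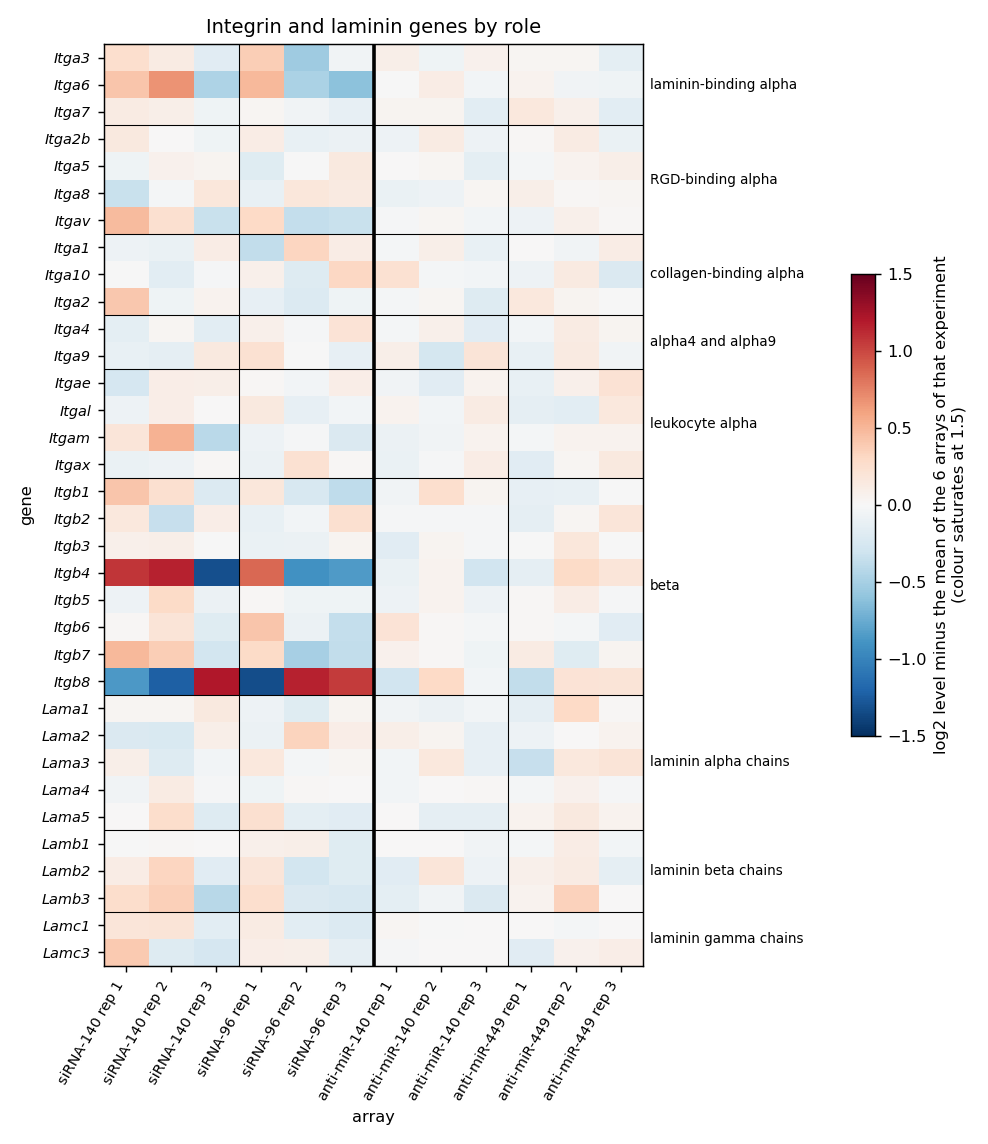
Each row is 1 of the 34 genes, ordered by role, and each column 1 array. Colour is the log2 level minus the mean of the 6 arrays of that experiment, saturating at 1.5. Itgb4 and Itgb8 carry the strongest colours on the siRNA arrays, in opposite directions, and siRNA-140 replicate 3 and siRNA-96 replicate 1 are coloured like arrays of the other label.

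**Figure D3:**
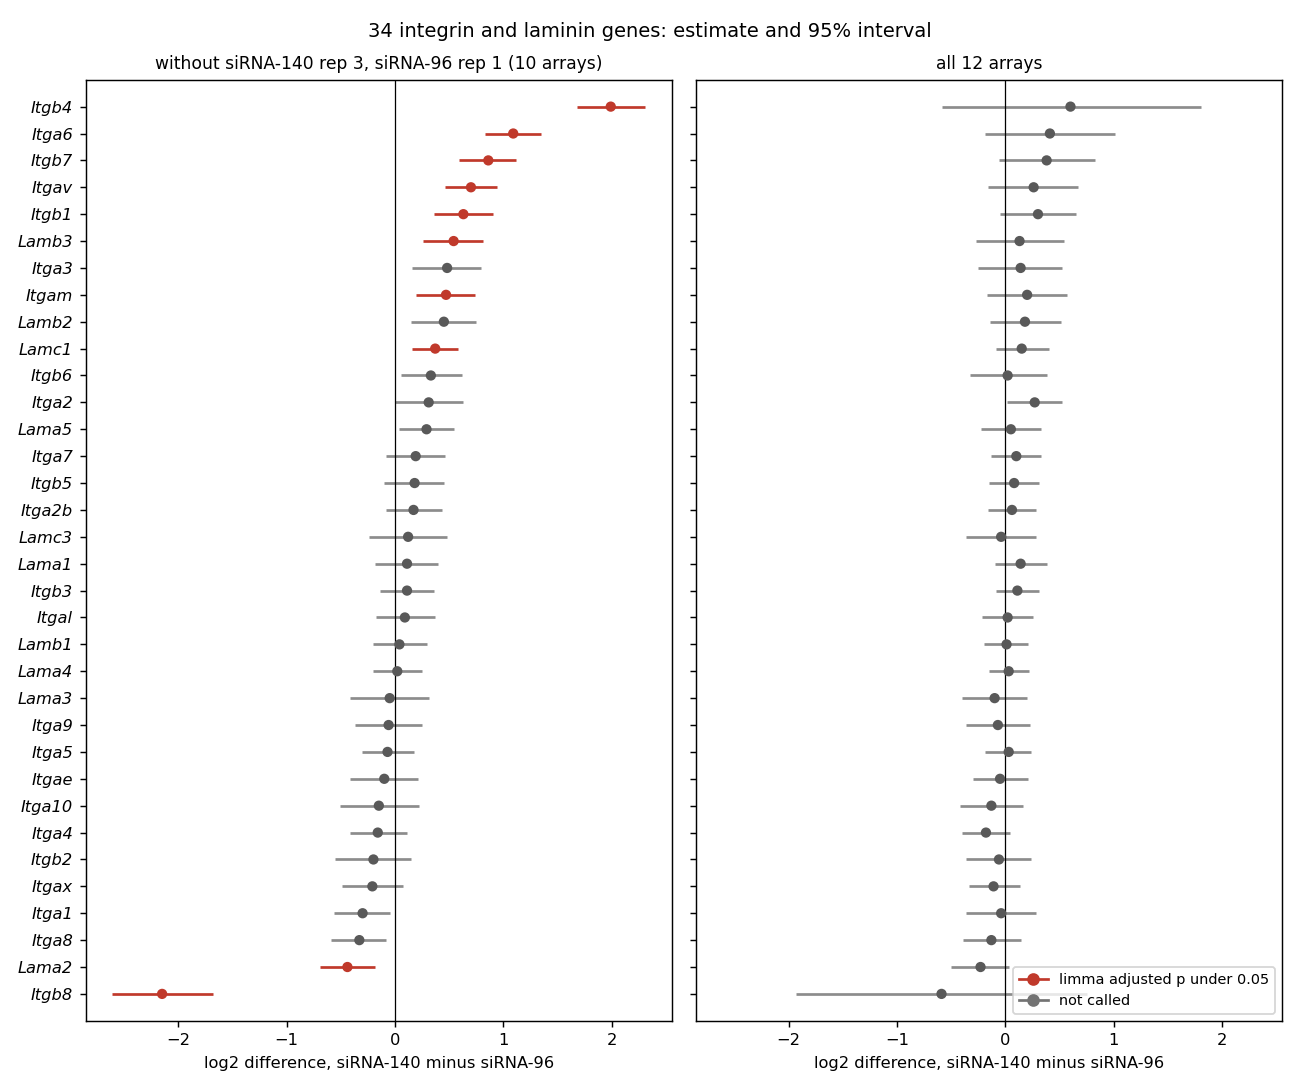
Log2 difference of siRNA-140 minus siRNA-96 (x axis) for each of the 34 genes (y axis), without the 2 arrays at left and with all 12 arrays at right. Points are limma estimates, lines their 95% intervals, and red marks an adjusted p under 0.05. At left 8 genes are called higher and 2 lower, and at right 0 are called.

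Genes that work beside the integrins were read from lists written from general knowledge with earlier results of these data known. In the fit without the 2 arrays, partners in hemidesmosomes and tetraspanin complexes were higher in 3 and lower in 0 of 10, where 6.27% of all genes were higher. In both fits 2 were higher, where 2.44% of all genes were. Krt14, a keratin of basal epithelium, was higher by 1.49 ± 0.19 (limma adjusted p = 0.000327), but it was dim. It read 3.69, 4.41 and 2.69 with siRNA-140, against 3.93, 2.73 and 2.39 with siRNA-96. Of these arrays, only siRNA-140 replicate 2 read above its array median. Cd9, a tetraspanin, was higher by 0.71 ± 0.13 and Plec, the plectin that ties β4 to keratins, by 0.51 ± 0.12. Plec did not pass with 4 arrays (limma adjusted p = 0.118). Of the 8 epithelial markers, Itgb4 and Krt14 were higher and 0 lower, while Cdh1 gave -0.27, Epcam -0.12, Krt8 0.25, Krt18 -0.02, Krt19 -0.01 and Krt5 -0.10, none called. Epithelial markers had mean levels of 4.22, 4.24 and 3.88 with siRNA-140, against 4.31, 3.78 and 3.88 with siRNA-96, and Itgb4 and Krt14 are part of that mean.

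Genes listed as basement membrane proteins and integrin ligands were mostly lower where they were called. With siRNA-140, 9 of 28 were lower and 2 higher in that fit, where 4.85% of all genes were lower and 6.27% higher. The list is not of matrix proteins alone, since it also holds Vcam1, Icam1 and Tgfb1. In both fits 5 were lower and 1 higher, where 2.38% and 2.44% of all genes were. Postn, which encodes periostin, a ligand of αv integrins, was lower, at -3.72 ± 0.14 (limma adjusted p = 3.72e-08). Agrn (agrin, which also binds laminins) was lower, at -0.97 ± 0.11, as were Fbln5 (fibulin-5, an elastic fibre protein that binds integrins) at -0.97 ± 0.11, Tnc (tenascin-C) at -0.79 ± 0.12 and Edil3 at -0.66 ± 0.12. Fn1, the fibronectin gene, was lower, at -0.45 ± 0.11, with 10 arrays and did not pass with 4 (limma adjusted p = 0.0209 and 0.131). Nid2, Col4a5 and Vcam1 (lower) and Tgfb1 (higher) likewise passed with 10 arrays and not with 4. Nid1, which encodes nidogen-1, the link between laminin γ1 and collagen IV, was higher by 0.78 ± 0.12 (limma adjusted p = 0.00128).

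Inside the cell, 4 of 27 adaptor and kinase genes were higher and 3 lower with 10 arrays, where 6.27% and 4.85% of all genes were, and 2 were higher and 0 lower in both fits. Tns3, a tensin that binds beta tails, was higher by 0.94 ± 0.10 and Lims1, the PINCH1 partner of integrin-linked kinase, by 0.69 ± 0.10 (limma adjusted p = 6.82e-05 and 0.000901 with 10 arrays). Tns1 and Cav1 were higher with 10 arrays, at 0.54 and 0.53, and did not pass with 4 (limma adjusted p = 0.0675 for each). Fermt2 (kindlin-2, an activator of beta subunits), Parvb and Flna were lower, at -0.51, -0.50 and -0.39, with 10 arrays and did not pass with 4 (limma adjusted p = 0.089, 0.107 and 0.2). Of 11 laminin receptors that are not integrins, 1 was higher and 0 lower, a share near that of all genes: Sdc2, a syndecan, by 0.87 ± 0.13 (limma adjusted p = 0.000708). The median differences of the lists were 0.20 (hemidesmosome and tetraspanin partners), -0.10 (basement membrane and ligands), 0.03 (adaptors and kinases) and 0.01 (other laminin receptors), beside 0.04 over all genes. With all 12 arrays none of the genes named from these lists was called.

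**Figure D4:**
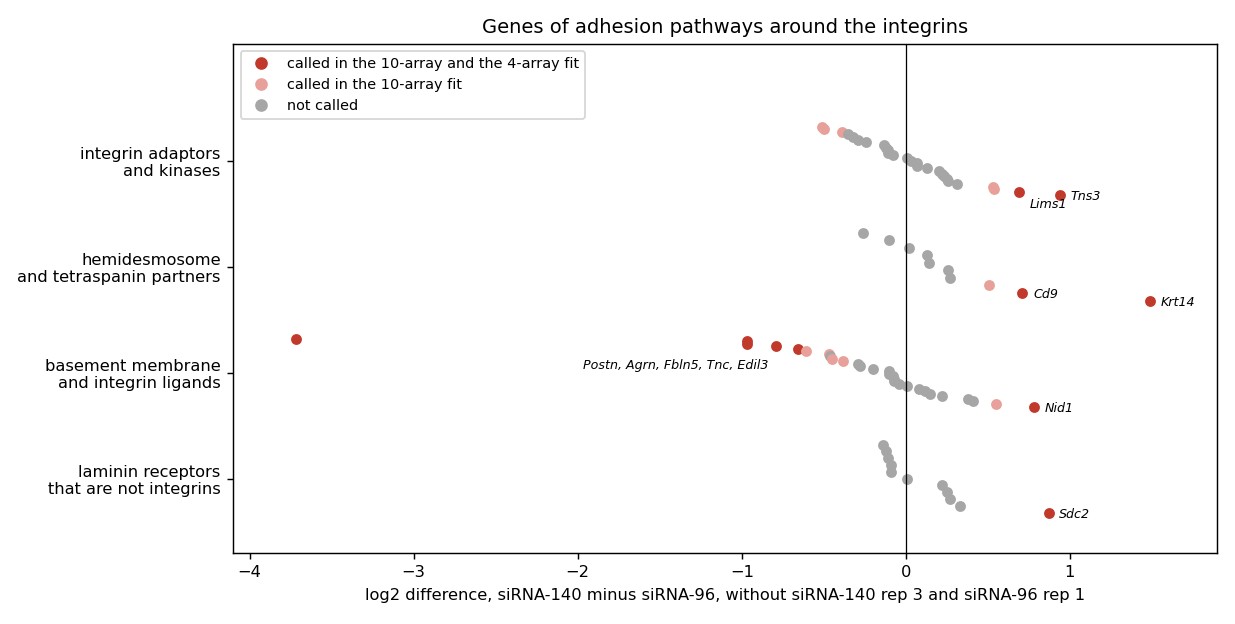
Log2 difference of siRNA-140 minus siRNA-96 with the 2 arrays left out (x axis) for the genes of 4 adhesion lists (y axis). Each point is 1 gene, dark red where it was called with 10 and with 4 arrays, pale red where called with 10 arrays alone, grey where not called. Postn lies farthest left at -3.72, and Krt14 farthest right at 1.49.

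The second comparison asked whether integrin and laminin genes differ between cells in which miR-140 and cells in which miR-449 is bound by an LNA. No difference was called. limma called 0 of 34 with all 12 arrays, where 0% of all genes were called, and 0 of 34 had an unadjusted p under 0.05, beside 1.56% of all genes. With only the 6 anti-miR arrays in the fit, limma also called 0 (0% of all genes), with 1 of 34, Lamb3, at an unadjusted p under 0.05 beside 3.47% of all genes. The median difference was -0.03, beside 0.00 over all genes, and single differences ran from -0.27 to 0.16.

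Itgb4 read 6.32, 6.47 and 6.14 with anti-miR-140, against 6.29, 6.71 and 6.60 with anti-miR-449. The groups overlapped. The difference was -0.22 ± 0.13 in the fit of these 6 arrays (interval -0.51 to 0.06; limma adjusted p = 0.974) and -0.22 ± 0.55 in the fit of 12, where the siRNA arrays widen the variance. Itga6 read 10.25, 10.36 and 10.21, against 10.31, 10.20 and 10.19 (difference 0.04 ± 0.08 in the 6-array fit, interval -0.13 to 0.21).

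Lamb3 read 5.85, 5.94 and 5.78 with anti-miR-140, against 6.04, 6.34 and 6.0 with anti-miR-449. Lama5 read 7.04, 6.90 and 6.90, against 7.09, 7.18 and 7.08. These were the 2 of 34 genes whose groups did not overlap, both with anti-miR-140 below, where 4.42% of all genes had that arrangement and 7.72% were apart in either direction. Lamb3 differed by -0.27 ± 0.10 and Lama5 by -0.17 ± 0.08 in the 6-array fit, and neither passed (limma adjusted p = 0.974 for each).

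Itgb8 read 4.43, 5.02 and 4.68 with anti-miR-140, against 4.35, 4.93 and 4.92 with anti-miR-449, a difference of -0.02 ± 0.19 (interval -0.45 to 0.41 in the 6-array fit). Itgb1 read 10.64, 10.95 and 10.73, against 10.57, 10.58 and 10.69 (0.16 ± 0.09, interval -0.05 to 0.37). The intervals of Itgav (-0.18 to 0.15), Itgb7 (-0.20 to 0.23), Itgb5 (-0.24 to 0.10) and Itga5 (-0.26 to 0.10) all include 0.

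By p in the 12-array fit, where none passed, Itgal and Itga10 came next after Itgb1 on the higher side, at 0.09 ± 0.11 and 0.10 ± 0.13, and Itgb3 came next after Lamb3 and Lama5 on the lower side, at -0.11 ± 0.09. Itgal read 4.26, 4.16 and 4.32 with anti-miR-140, against 4.07, 4.04 and 4.36 with anti-miR-449. Itga10 read 4.21, 3.96 and 3.94, against 3.91, 4.12 and 3.77. Itgb3 read 5.80, 6.01 and 5.95, against 5.97, 6.14 and 5.97. Each of these pairs of groups overlapped at these probe sets. A dimmer Itgb3 probe set read 4.52, 4.48 and 4.46, against 4.76, 4.61 and 4.75, without overlap. It differed by -0.22 ± 0.07 in the 6-array fit and was not called (limma adjusted p = 0.974). Dimmer probe sets of Lama5 and Lamc3 (anti-miR-140 lower) and of Itgb1 (higher) were also apart, and none was called. Of all genes, 7.72% were apart in either direction.

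Set beside the siRNA arrays, the anti-miR arrays did not read like either set for every gene. For Itgb4 they lay between the siRNA arrays that read 7.13 to 7.43 and those that read 4.95 to 5.42. For Itgb8 they also lay between, at 4.35 to 5.02, while for Itga6, at 10.19 to 10.36, they lay near the high siRNA arrays. Array medians were 3.95 to 4.02 on the siRNA arrays and 4.32 to 4.38 on the anti-miR arrays, so these positions are descriptions and were not tested.

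**Figure D5:**
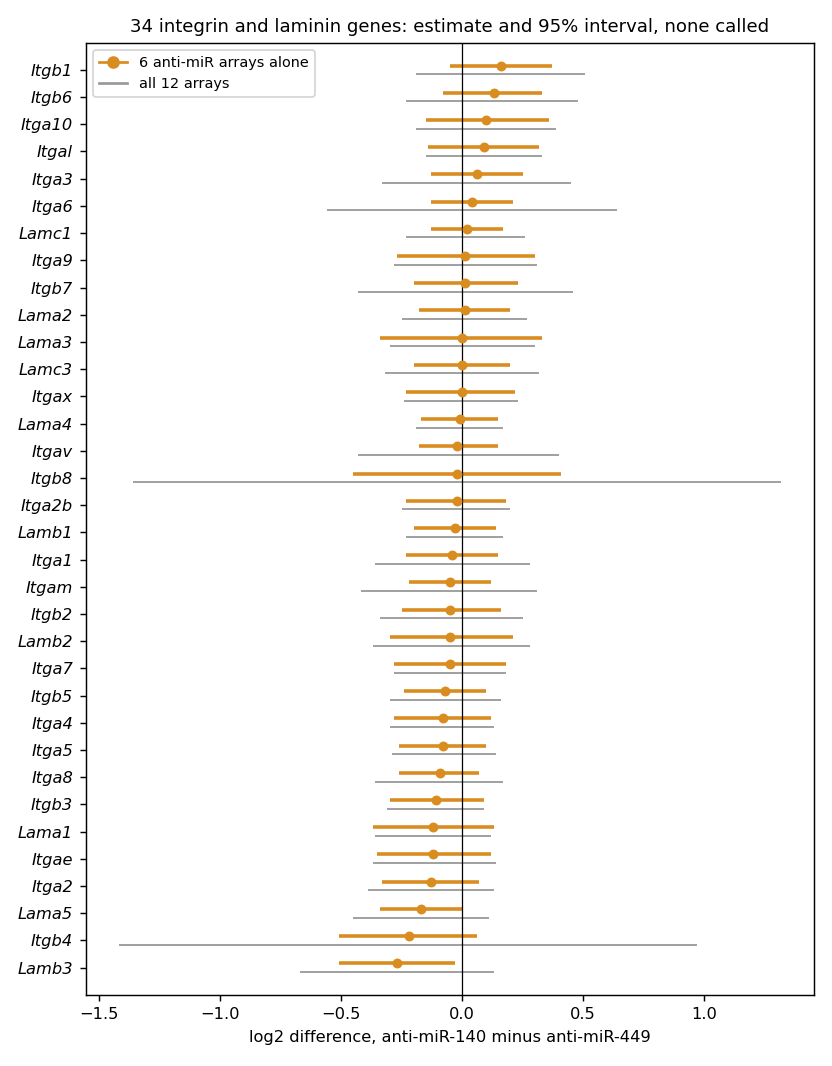
Log2 difference of anti-miR-140 minus anti-miR-449 (x axis) for each of the 34 genes (y axis). Orange points and lines are the estimate and 95% interval from the 6 anti-miR arrays alone, and grey lines the 95% interval from all 12 arrays. The intervals from 6 arrays include 0 for every gene except Lamb3, whose interval is -0.51 to -0.03, and that of Lama5 only just reaches 0.

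The experiments together allow the siRNA difference to be set against the anti-miR difference of the same gene. The difference between the contrasts was called at 0 of 34 genes with 12 arrays, where 0% of all genes were called. At an unadjusted p under 0.05 there was 1 of 34 beside 2.35% of all genes. With the 2 arrays left out it was called at 6 of 34 genes, where 5.73% of all genes were called. The 6 were Itgb4, Itga6, Itgb7, Lamb3, Itgav and Itgb8.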

How the data were processed

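The authors deposited 1 log2 value per probe set and array, computed with RMA, per the submitters' processing notes. Its version and settings are not given in these sources. The table held 45101 probe sets; 64 array controls were left out and 45037 tested, with no filter on level. Symbols came from the platform annotation: 34945 probe sets had 1 symbol, 932 several and 9160 none. All 34 members matched RefSeq by gene ID and symbol.

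Fits used limma 3.58.1 (R 4.3.3) with 4 group means over 12 arrays (eBayes), with Benjamini-Hochberg adjustment over 45037 probe sets and a threshold of 0.05. Background shares count 1 probe set per gene. The fits of 12 arrays, 10 arrays, 4 siRNA arrays and 6 anti-miR arrays were run on simulated data and recovered the sizes put in. The difference of the contrasts and the other alternatives were not simulated. No simulated array went against its label, so the simulation does not cover leaving out arrays by their values. Where both experiments share 1 variance per probe set (12 or 10 arrays), false calls in the siRNA contrast exceeded the nominal share, and the 4-array fit did not show this. The number of arrays limits the precision.

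The members, lists and tests were chosen with earlier results of these data known. The siRNA arrays are described in full for Itgb4, Itga6, Lama3, Lamb3 and the 5 members with the highest mean. They are also given for members called in both fits without the 2 arrays and the 3 members each way with the smallest p per contrast. The anti-miR arrays are described in full for Itgb4, Itga6, Itgb8 and the 3 members each way with the smallest p in that contrast. Pathway genes were named up to 5 each way per list. Others were named beside them after their values were seen (Plec, Fn1, Fermt2, Parvb, Flna, Tns1, Cav1, Nid2, Col4a5, Vcam1, Tgfb1, Cd14, Cd68, Csf1r, Lamc1, Itgam). The main fits did not pair the arrays by replicate number, and whether the numbers pair the siRNA arrays is not settled.

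Alternatives were: fitting the 6 compared arrays separately, blocking on replicate number, quantile normalizing again, centring on medians, keeping brighter probe sets, leaving out each array, array weights, a variance trend with robust estimation, and averaging a gene's probe sets. The fits that omit siRNA-140 replicate 3 and siRNA-96 replicate 1 were added after seeing the data. The lists' counts were not tested.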

Additional observations from a re-analysis of the deposited data

Results flagged for a closer look

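The siRNA and anti-miR contrasts differed at 6 of the 34 genes when siRNA-140 replicate 3 and siRNA-96 replicate 1 were left out (limma, 10 arrays), where 5.73% of all genes did. The difference of the contrasts, siRNA minus anti-miR, was 2.22 ± 0.19 for Itgb4 (SE; limma adjusted p = 2.25e-05), 1.05 ± 0.15 for Itga6 (adjusted p = 0.00152), 0.84 ± 0.16 for Itgb7 (adjusted p = 0.00795), 0.80 ± 0.16 for Lamb3 (adjusted p = 0.0126), 0.72 ± 0.14 for Itgav (adjusted p = 0.0126) and -2.12 ± 0.27 for Itgb8 (adjusted p = 0.000667). For each of them the siRNA contrast supplied most of the difference, since the anti-miR differences lay between -0.27 and 0.04. With all 12 arrays none of them passed.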

How the results depend on the processing

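With the arrays as labelled, the counts of 0 genes called in each contrast, and in their difference, held under every alternative listed above that could be fitted, each array left out included (0 to 0); the fit of the compared arrays alone was not run for the difference of the contrasts. The replicate block also gave 0 in each. In their deviations from the siRNA group means, same-numbered arrays correlated at 0.41, -0.24 and 0.44 (replicates 1, 2 and 3). For the anti-miR groups the correlations were -0.01, 0.10 and -0.03. Whether the numbers pair the siRNA arrays is not settled by these values, since replicates 1 and 3 were positive and replicate 2 was negative. Leaving out both siRNA-140 replicate 3 and siRNA-96 replicate 1 changed the count of the siRNA contrast to 10 with 10 arrays and 6 with 4, its median to 0.115 in both, and the count for the difference of the contrasts to 6. Leaving out 1 array at a time gave medians of 0.00167 to 0.106 (siRNA) and -0.0675 to 0.0025 (anti-miR).

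Directions turned only at small, uncalled differences. In the siRNA contrast Itga5 gave -0.01 after quantile normalization, -0.05 with array weights, -0.03 as the mean of its probe sets and -0.07 without the 2 arrays, and Lama5 gave 0.00 after quantile normalization. In the anti-miR contrast Lama3 gave 0.01 after quantile normalization and 0.00 after centring, and the mean of all probe sets gave 0.05 for Itga4 and 0.08 for Itgav. With 1 array left out, siRNA differences turned sign within -0.06 to 0.11 (Itga5), -0.25 to 0.01 (Itga8), -0.04 to 0.09 (Itgal), -0.05 to 0.14 (Itgb5), -0.07 to 0.18 (Lama5) and -0.01 to 0.37 (Lamb3). Anti-miR differences did so within 0.00 to 0.08 (Itga6), -0.06 to 0.02 (Itgav), -0.07 to 0.08 (Itgb7), -0.21 to 0.12 (Itgb8), -0.03 to 0.07 (Lama2) and -0.18 to 0.09 (Lama3). The size of the siRNA difference rests on single arrays: Itgb4 ran from 0.17 to 1.41 and Itgb8 from -1.40 to -0.12. The cause was not tested. With 3 arrays a group, an exact permutation test could not give a p below 0.1.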
